A study of Mus musculus with 6 samples.

Results

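The 10 genes described here encode the kinase complex mTORC1 (Mtor, Rptor), the switch that turns it on (Rheb), proteins that restrain it (Ddit4, Ddit4l, Deptor, Tsc1, Tsc2) and substrates that carry its signal (Eif4ebp1, Rps6kb1). They were chosen by symbol, and every probe that the platform annotation gives to them was read. Of the 10 genes, 9 had a probe, 25 probes in all, and Rps6kb1, which encodes the ribosomal S6 kinase 1, had none under its symbol and has no value here. Among 10196 named genes tested, these 9 were each represented by their brightest probe, which was detected on all 6 arrays. Of the 25 probes, 17 passed the detection filter (detection p below 0.05 on at least 2 arrays) and 8 were detected on no array.

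The RNA was extracted from quadriceps of NOD-SCID mice, an immunodeficient strain without functional T and B lymphocytes. Each mouse had been transplanted under the skin with 5000000 cells of a human renal cancer line, RXF393 or SKRC39, and muscle was taken after 22 days. The labels mark RXF393 as cachectic, meaning that it makes its host waste muscle and fat, and SKRC39 as not. Every array therefore comes from a tumour-bearing mouse, no tumour-free group was analysed here, and the age and sex of the mice are not given in the labels. Title and characteristics name the same line on 4 arrays, SKRC39 replicates 1 and 2 and RXF393 replicates 2 and 3, numbered by title, and only these enter the comparison. On 2 arrays the labels conflict: the one titled RXF_1 has SKRC39 in its characteristics, and the one titled SKR_3 has RXF393. Their values are given apart and without a group. The labels' design text counts 3 mice without saying whether per line. With 1 mouse per array, as read here, the spread between replicates is a spread between mice. Each SE, confidence interval and p-value comes from a moderated test (limma), whose variance is drawn partly from other probes. An SE can therefore be larger or smaller than the spread of a gene's own arrays would give. All levels are log2 intensities of single Illumina MouseWG-6 v2.0 probes after background correction and quantile normalization over the 6 arrays, and a level can be compared between arrays but not between probes.

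mTORC1 is a protein kinase complex on the lysosome surface that promotes protein synthesis and holds back autophagy when amino acids, insulin and energy are plentiful, and its activity is a main determinant of muscle mass. The GTPase Rheb switches the kinase on, and the Tsc1-Tsc2 complex switches Rheb off. Ddit4 (also called REDD1) and its relative Ddit4l (REDD2) act through the Tsc complex, whereas Deptor binds mTOR itself. The kinase acts on translation through Eif4ebp1, a repressor of cap-dependent initiation that it inactivates by phosphorylation, and through the S6 kinases. These arrays measure mRNA and not phosphorylation, so they give no reading of the activity of the kinase.

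The 4 arrays were of muscle by their markers: all 10 muscle fibre markers were tested, 0 passed the threshold in limma and 0 had an unadjusted p under 0.05. Several of them, Ckm and Acta1 among these, stood near the highest log2 intensity of every array, 16.15, so they show that the tissue is muscle but do not measure how much of it each array held. Detected probes made up 30.3% to 37.7% of all probes. No marker of another cell type passed in limma either, but some had an unadjusted p under 0.05, a level at which 8.1% of all genes were higher and 6.69% lower. Of 12 neutrophil markers 5 were tested and 4 were higher at that level, and their summed intensity was 295 and 642 on the SKRC39 arrays and 2122 and 6346 on the RXF393 arrays, with Chil3 and Retnlg detected on neither SKRC39 array. All 8 fibroblast markers were tested and 4 were lower at that level, with sums of 30124 and 35636 against 20584 and 25689, and Fmod was detected on neither RXF393 array. Of 8 erythroid markers 4 were tested, 2 higher and 1 lower at that level, with sums of 75071 and 31275 against 79630 and 75234. Of 6 adipocyte markers 4 were tested and 1, Lep, was lower at that level, with sums of 362 and 2460 against 306 and 1284. Each sum is led by its brightest probes, Dcn among the fibroblast and Hba-a1 among the erythroid markers, neither of them past that level. The part of the cell type markers in the results below was not tested. In whole muscle, fewer cells of a type and less RNA per cell cannot be told apart.

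Among the inhibitors, Ddit4 rose and its relative Ddit4l stood lower. The promoters of both genes are printed because the genes lay apart in opposite directions. They are the 250 bases before the annotated start, from RefSeq on GRCm38.p6, on the gene's strand: Ddit4 on the minus strand at chr10:59951771-59952020 and Ddit4l on the plus strand at chr3:137623422-137623671. Capitals mark the matches to the motifs named below.
Ddit4: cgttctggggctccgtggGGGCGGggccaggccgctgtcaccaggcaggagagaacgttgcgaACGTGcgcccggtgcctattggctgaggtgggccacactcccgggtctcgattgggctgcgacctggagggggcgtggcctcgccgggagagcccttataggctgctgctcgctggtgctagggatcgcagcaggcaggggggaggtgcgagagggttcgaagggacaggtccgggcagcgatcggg
Ddit4l: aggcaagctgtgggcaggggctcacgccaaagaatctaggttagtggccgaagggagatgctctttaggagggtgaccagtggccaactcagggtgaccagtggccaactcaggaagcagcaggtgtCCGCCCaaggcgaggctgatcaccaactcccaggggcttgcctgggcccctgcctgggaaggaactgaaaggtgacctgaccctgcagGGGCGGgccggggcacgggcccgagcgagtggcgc
The motif ACGTG, a form of the hypoxia response core, was found in 16.6% of 32851 such windows. Searched on both strands, the Ddit4 window holds it 1 time, starting 187 bases before the start. It holds the GC box GGGCGG 1 time, 232 bases before the start, against 32.7% of windows, and the Ddit4l window holds it 2 times, as its reverse complement CCGCCC 123 bases before the start and as GGGCGG 35 bases before it. Neither window holds the glucocorticoid receptor half-site AGAACA (16.1% of windows), the full palindromic glucocorticoid response element (0.00913%), the E-box CACGTG (6.02%), which contains ACGTG on both strands, the FoxO element GTAAACA (3.17%), the C/EBP-ATF element TGATGNAAN (3.44%), TATAAA (12.4%) or the MEF2 site (0.24%). The other form of the hypoxia core, GCGTG, was not searched for or marked. It stands in both windows, in that of Ddit4l as its reverse complement. A match is a description of letters and not of a bound site, and the absence of a match says nothing of the factor. The GC content was 70% for Ddit4 and 65.2% for Ddit4l.

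Ddit4, a stress-induced inhibitor of mTORC1, had log2 intensities of 9.07 and 9.01 with SKRC39, replicate 1 first, and of 13.81 and 13.92 with RXF393, replicate 2 first, the order used throughout. The replicates of each line lay within 0.11 of each other, and the groups were far from overlapping. Its log2 change of RXF393 against SKRC39 was 4.83 ± 0.38 (SE, n = 2 per group), a 28.5-fold rise with a 95% confidence interval from 15.3-fold to 53.1-fold (adjusted p = 0.0212, limma's moderated test with Benjamini-Hochberg adjustment over all 17738 probes tested). By p it ranked 2 among the 10196 genes, and by size of change 16. In the authors' deposited normalized table the same probe had intensities of 646 and 625 with SKRC39 and 14520 and 15658 with RXF393. Leaving out any array in turn gave folds of 27.4 to 29.6. Limma lost the Ddit4 call, and called no named gene at all, under 3 settings. They were median scaling (log2 change 4.88, adjusted p = 0.0792), a variance prior with no trend on intensity (4.83, adjusted p = 0.13) and all 6 arrays grouped by title (1.41, adjusted p = 1.00).

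Of the 9 tested members Ddit4 was the only one past the threshold of 0.05, and none was lower past it. Over all genes tested, 0.196% were called higher and 0.157% lower, so a list of 9 genes would hold few calls at these rates. At an unadjusted p under 0.05 in limma, 3 of the 9 were higher and 1 was lower, against 8.1% and 6.69% of all genes. The arrays of the 2 lines did not overlap for 4 members that were higher and 2 that were lower, against 28.1% and 20.6% of all genes and 48.7% in either direction. With 2 arrays a group an exact permutation test cannot give a two-sided p below 0.333, so all tests here rest on limma's pooling of the spread over probes. Fits without 1 array leave 1 array in a group and take it to vary like the others. They are given by size of change.

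**Figure D1:**
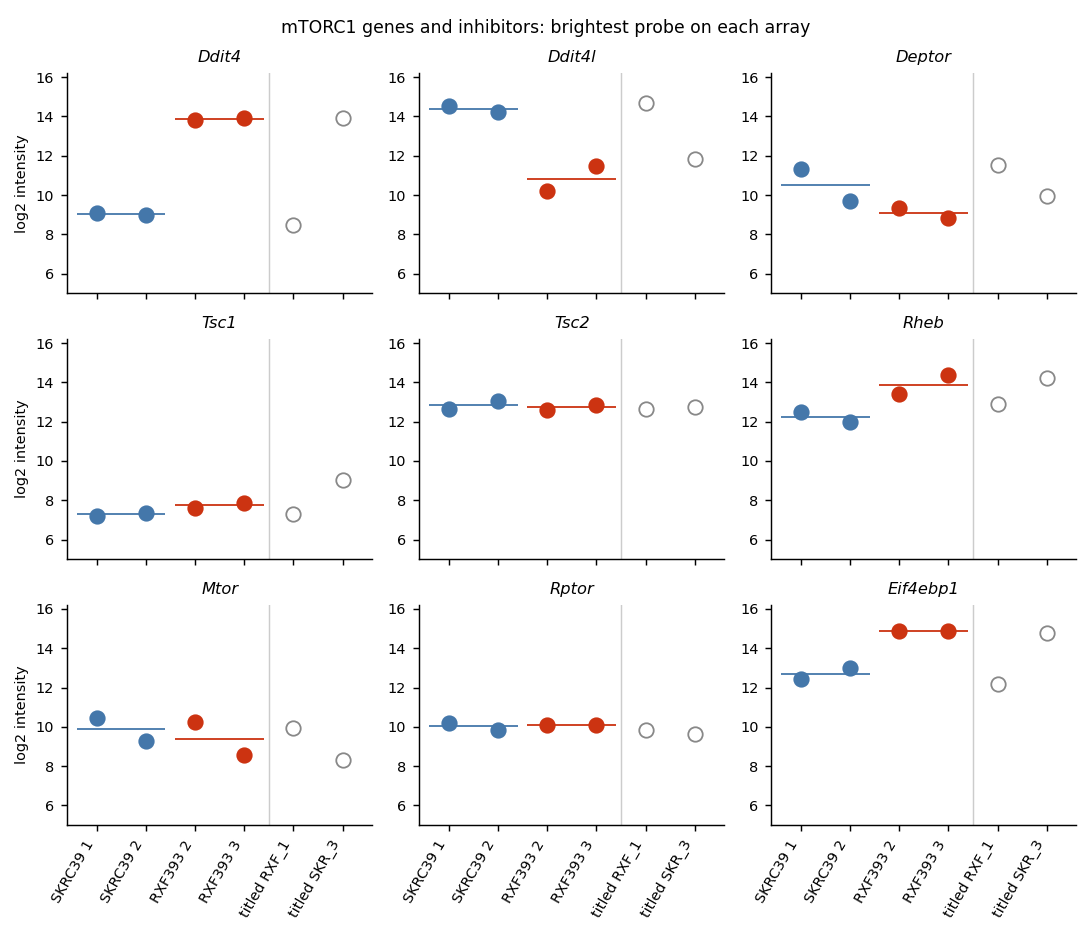
Log2 intensity (y axis) of the brightest probe of each of the 9 measured genes on each array (x axis), with filled blue points for SKRC39, filled red points for RXF393, lines at the group means and open grey points for the 2 arrays with conflicting labels. Ddit4 and Eif4ebp1 were higher and Ddit4l was lower on both RXF393 arrays than on both SKRC39 arrays, while the points of Tsc2, Rptor and Mtor overlapped between the lines.

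Ddit4l, the muscle-enriched relative of Ddit4 that also restrains mTORC1, had the opposite order. Its log2 intensity was 14.54 and 14.25 with SKRC39 and 10.20 and 11.48 with RXF393. Both RXF393 arrays lay below both SKRC39 arrays, and the RXF393 arrays were 1.28 apart. Its log2 change was -3.55 ± 0.47 (SE, n = 2 per group), 11.7-fold lower with a 95% confidence interval from 5.42-fold to 25.5-fold, and narrowly missed the threshold (adjusted p = 0.0506, limma). This margin depended on the setting. In limma the adjusted p was 0.0443 with an offset of 50 after background correction, 0.22 under median scaling and 0.21 without the intensity trend. Leaving out 1 array moved the log2 change between -4.20 (without RXF393 replicate 3) and -2.91 (without RXF393 replicate 2). In the authors' deposited normalized table its intensities were 23995 and 19565 with SKRC39 and 1287 and 2973 with RXF393. Each of Ddit4 and Ddit4l was read by only 1 probe.

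Deptor, which binds mTOR and inhibits both of its complexes, stood at 11.30 and 9.71 with SKRC39 and at 9.37 and 8.82 with RXF393. The RXF393 arrays were the lower ones, but SKRC39 replicate 2 lay closer to them than to SKRC39 replicate 1. Its log2 change of -1.41 ± 0.66 (SE, n = 2 per group) did not pass (adjusted p = 0.43, limma), and its 95% confidence interval ran from -2.98 to 0.16. Leaving out SKRC39 replicate 1 moved it to -0.61 and leaving out SKRC39 replicate 2 to -2.21. The other Deptor probe was detected on no array.

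Tsc1, which encodes hamartin, the stabilising partner in the Tsc complex, was read by 4 probes and all were tested. On each of the 4 probes both RXF393 arrays lay above both SKRC39 arrays, and none passed the threshold. The brightest stood at 7.21 and 7.37 with SKRC39 and at 7.61 and 7.87 with RXF393, a log2 change of 0.45 ± 0.64 (adjusted p = 0.77, limma). The other probes had larger changes of 1.76 ± 0.70, 1.70 ± 0.86 and 0.75 ± 0.58 (SE, n = 2 per group; adjusted p = 0.37, 0.45 and 0.58, limma). These other probes were detected on all 6 arrays but lay near background with SKRC39, at levels from 5.63 to 6.91. The lowest detected level of any probe was 5.43 on SKRC39 replicate 1 and 5.65 on SKRC39 replicate 2. The brightest probe is annotated to another sequence record than the probes with changes of 1.76 and 1.70. On the probe with the change of 1.76 the arrays stood at 6.02, 6.59, 7.56 and 8.57 in the order SKRC39 1 and 2, RXF393 2 and 3. RXF393 replicate 3 was the highest of the 4 arrays on every Tsc1 probe. Probes of 1 gene share the RNA of the same arrays and are not replicates.

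Tsc2, which encodes tuberin, the part of the complex that turns Rheb off, was level between the lines on its 2 bright probes. The brightest stood at 12.65 and 13.07 with SKRC39 and at 12.59 and 12.86 with RXF393, so the groups overlapped. Its log2 change was -0.14 ± 0.33 (SE, n = 2 per group; adjusted p = 0.87, limma), with a 95% confidence interval from -0.93 to 0.65, so a change as large as that of Eif4ebp1 lies outside it. The next probe gave -0.08 ± 0.33, and the dim last probe 0.51 ± 0.64, which did not pass either (adjusted p = 0.74, limma). The sign of the brightest probe turned under median scaling, to 0.14.

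Rheb, the GTPase that switches mTORC1 on, stood at 12.50 and 11.96 with SKRC39 and at 13.40 and 14.37 with RXF393. The groups did not overlap, and the arrays of RXF393 were 0.96 apart. Its log2 change was 1.65 ± 0.42 (SE, n = 2 per group), 3.14-fold with a 95% confidence interval from 1.59-fold to 6.22-fold, and did not pass (adjusted p = 0.20, limma). The change was 2.13 without RXF393 replicate 2 and 1.17 without RXF393 replicate 3. Only 1 of the 4 Rheb probes was detected on any array, so no other probe bears on its value.

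Mtor, the kinase itself, was read by 2 tested probes that pointed in opposite directions. A further probe was detected on no array. The platform annotation ties the 2 tested probes to different sequence records, so whether they read the same transcript is not known. The brighter stood at 10.44 and 9.29 with SKRC39 and at 10.24 and 8.55 with RXF393, a log2 change of -0.47 ± 0.74 (adjusted p = 0.80, limma). The other stood at 7.37 and 8.31 with SKRC39 and at 7.65 and 9.07 with RXF393, a log2 change of 0.52 ± 0.77 (adjusted p = 0.78, limma). Within each line the array that was lower on the brighter probe was higher on the other. The spread between replicates, 1.15 and 1.69 on the brighter probe, exceeded the difference between the lines, and the 95% confidence interval of -2.22 to 1.29 leaves changes of over 2-fold in either direction possible.

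Rptor, which encodes raptor, the scaffold that brings substrates to the kinase, had 6 probes, 3 of them tested. The brightest stood at 10.19 and 9.85 with SKRC39 and at 10.10 and 10.09 with RXF393. The groups overlapped, and the log2 change was 0.07 ± 0.48 (SE, n = 2 per group; adjusted p = 0.95, limma), with a 95% confidence interval from -1.06 to 1.21. The other 2 tested probes were dim, with levels from 5.23 to 6.79 and from 5.50 to 7.0 on the 4 arrays. Neither log2 change, 1.05 ± 0.50 and 0.79 ± 0.58, passed (adjusted p = 0.43 and 0.57, limma). Each was detected on 1 of the 2 SKRC39 arrays, so these levels lie near background.

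**Figure D2:**
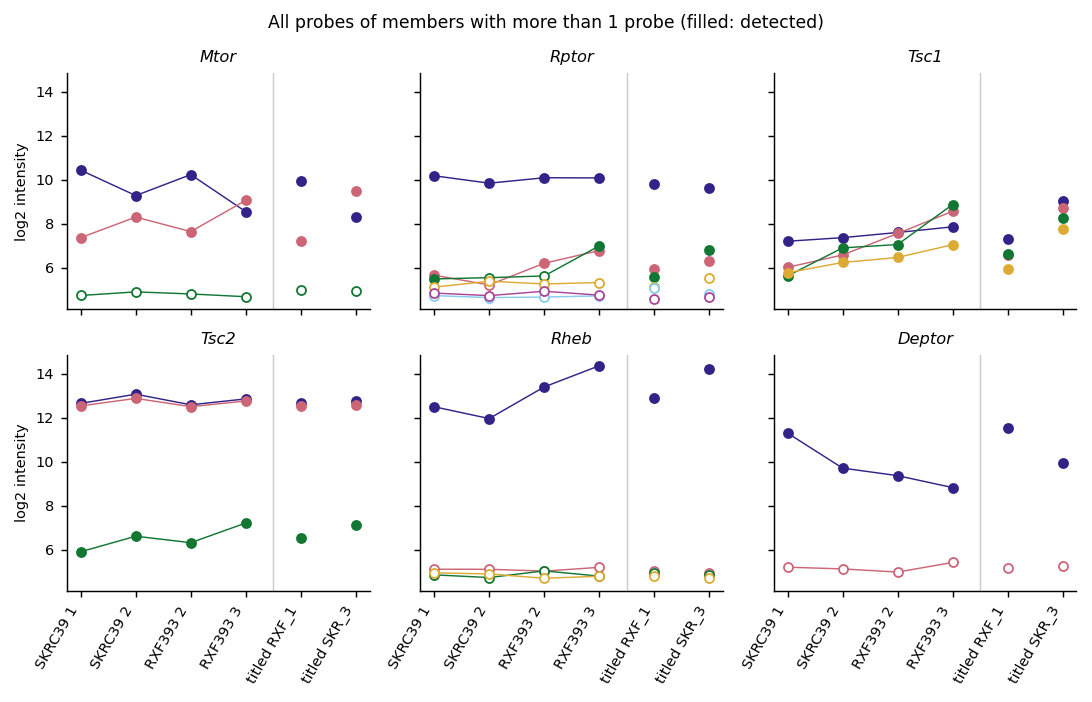
Log2 intensity (y axis) of every probe of the 6 genes with more than 1 probe on each array (x axis), with filled points where the probe was detected, open points where it was not, and lines joining the values of a probe over the 4 grouped arrays. Among the 4 grouped arrays the 4 Tsc1 probes lay highest on RXF393 replicate 3, the 2 detected Mtor probes mirrored each other, and 3 of the 4 Rheb probes stayed at background.

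Eif4ebp1, the translation repressor that mTORC1 inactivates, stood at 12.42 and 12.97 with SKRC39 and at 14.85 and 14.87 with RXF393. The RXF393 arrays lay within 0.021 of each other and above both SKRC39 arrays, which were 0.55 apart. Its log2 change was 2.17 ± 0.30 (SE, n = 2 per group), 4.49-fold with a 95% confidence interval from 2.74-fold to 7.35-fold, and missed the threshold (adjusted p = 0.0559, limma). The change was 1.89 without SKRC39 replicate 1, 2.44 without SKRC39 replicate 2, 2.18 without RXF393 replicate 2 and 2.15 without RXF393 replicate 3. In the authors' deposited normalized table its intensities were 5607 and 8156 with SKRC39 and 29727 and 30155 with RXF393. Like Ddit4 and Ddit4l, it was read by 1 probe.

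**Figure D3:**
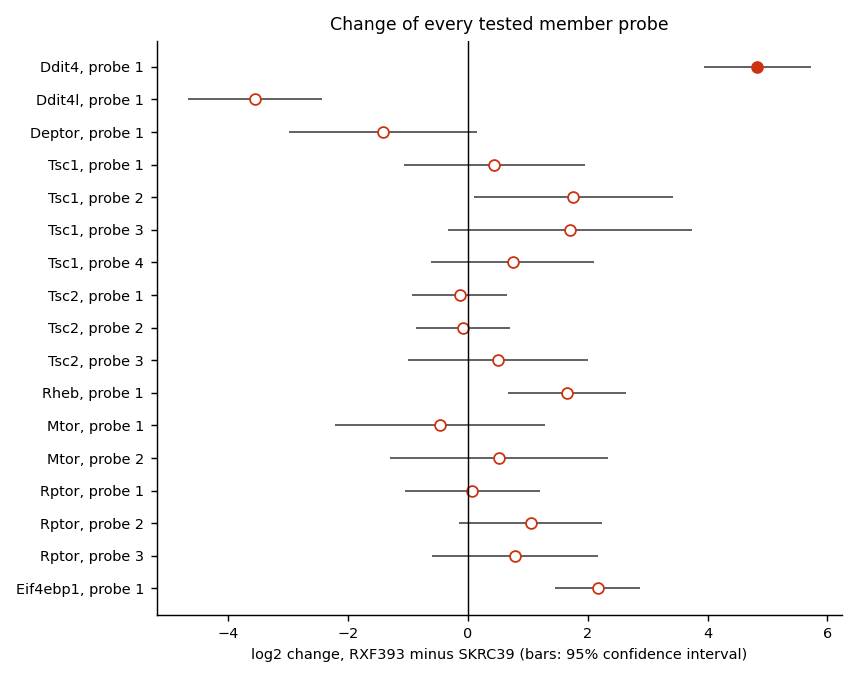
Log2 change of RXF393 against SKRC39 (x axis) with its 95% confidence interval (bars) for the 17 tested probes of the 9 genes (y axis), filled where the adjusted p was below 0.05. Ddit4 at 4.83 is the only filled point, Ddit4l at -3.55 and Eif4ebp1 at 2.17 lie next from 0, and the intervals of Mtor, Rptor and Tsc2 all cross 0.

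The 2 arrays with conflicting labels lay on different sides for the members that were furthest apart. The array titled RXF_1 stood at 8.48 for Ddit4, 14.67 for Ddit4l and 12.18 for Eif4ebp1. The first and last of these values are below those of both SKRC39 arrays and that of Ddit4l is above them. The array titled SKR_3 stood at 13.92 for Ddit4, 11.86 for Ddit4l and 14.76 for Eif4ebp1. Its Ddit4 value lies between those of the RXF393 arrays, its Ddit4l value is above both of them and below both SKRC39 arrays, and its Eif4ebp1 value is just under theirs. For Rheb the values were 12.89 on the array titled RXF_1, above both SKRC39 arrays and below both RXF393 arrays, and 14.20 on the array titled SKR_3, between the RXF393 arrays. With all 6 arrays grouped by characteristics, 4 members passed in limma, Ddit4 at 5.03, Eif4ebp1 at 2.30 and Rheb at 1.54 among those higher and Ddit4l at -3.31 among those lower, while 18.3% of all genes did. Grouped by title, no member passed, and no gene did.

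**Figure D4:**
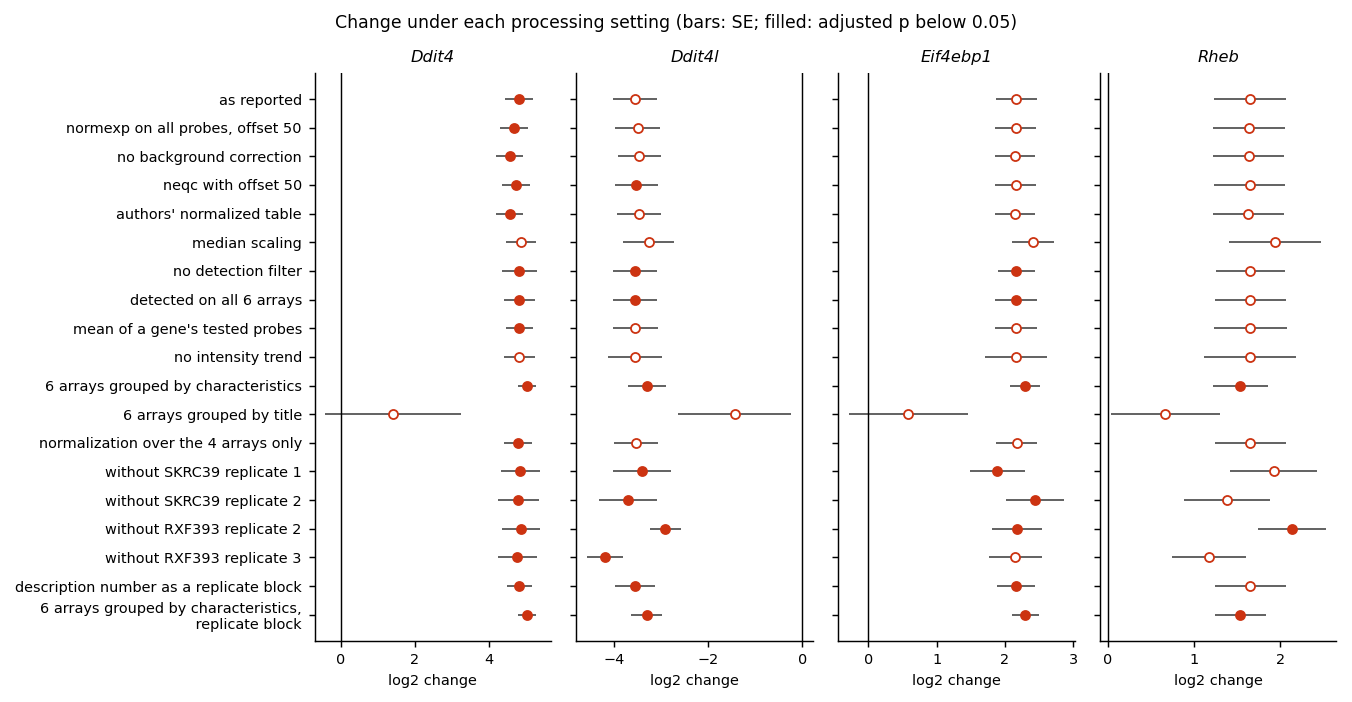
Log2 change of RXF393 against SKRC39 (x axes, bars for the SE) of Ddit4, Ddit4l, Eif4ebp1 and Rheb as reported and under each of 18 processing alternatives (y axis), filled where the adjusted p was below 0.05. Each gene kept its direction under all 18, with the smallest values (1.41, -1.43, 0.59 and 0.67) where the 6 arrays were grouped by title. Fills of the fits that leave out an array are not counted as calls.

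Beyond the 10 genes, 60 others of the mTOR pathway were examined, of which 48 were tested. None passed the threshold in limma, against 0.353% of all genes, and at an unadjusted p under 0.05 there were 3 higher and 3 lower of the 48, near the 14.8% of all genes that lay past this level in either direction. Their median log2 change was -0.04, beside 0.07 over all genes and 0.07 over the 9 members.

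Among 11 further genes of complex assembly, 9 were tested and the median log2 change was -0.14. The smallest unadjusted p-values belonged to Tti2, a co-chaperone of the kinase, at 0.70 ± 0.42, to Rhebl1, a Rheb relative, at 1.10 ± 0.80, and to Tbc1d7, a further subunit of the Tsc complex, at -0.61 ± 0.48 (SE, n = 2 per group; adjusted p = 0.51, 0.57 and 0.59, limma). Tti2 was detected on neither SKRC39 array, so its level there is only a bound. Another tested Tbc1d7 probe stood at -3.15 ± 1.30 and did not pass either (adjusted p = 0.39, limma). The subunit gene Mlst8 stood at -0.49 ± 0.42 and Rictor, which defines the other mTOR complex, at 0.23 ± 0.68.

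Of 31 genes of the amino acid and lysosome arm, through which nutrients reach mTORC1, 24 were tested, with a median log2 change of -0.03. The gene furthest from 0 was Sesn1, whose product sestrin 1 restrains mTORC1. It stood at 10.74 and 10.96 with SKRC39 and at 13.95 and 15.98 with RXF393, a log2 change of 4.11 ± 0.62 (SE, n = 2 per group; 17.3-fold) that did not pass (adjusted p = 0.0682, limma). Another Sesn1 probe gave 4.02 ± 0.59 and the last tested one 1.23 ± 0.67 (adjusted p = 0.0602 and 0.48, limma). Lamtor4, a subunit of the lysosomal anchor Ragulator, stood at -1.03 ± 0.35 and Sec13, a subunit of the GATOR2 complex, at 0.88 ± 0.30, and neither passed (adjusted p = 0.31 for both, limma).

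Of 18 further effectors 15 were tested, with a median log2 change of -0.03. Eef2k, the kinase that slows translation elongation and is inhibited downstream of mTORC1, stood at 10.37 and 9.44 with SKRC39 and at 7.99 and 4.87 with RXF393, where 1 of 2 arrays detected it. Its log2 change of -3.47 ± 1.07 did not pass (adjusted p = 0.27, limma), and its other tested probe stood at 0.16 ± 0.49. Ppp2ca, a catalytic subunit of protein phosphatase 2A, stood at 0.62 ± 0.27 and Larp1, which represses translation of ribosomal protein mRNAs, at 1.34 ± 0.64 (adjusted p = 0.40 and 0.43, limma). Eif4ebp2, a relative of Eif4ebp1, stood at -0.70 ± 0.38, without passing (adjusted p = 0.48, limma).

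**Figure D5:**
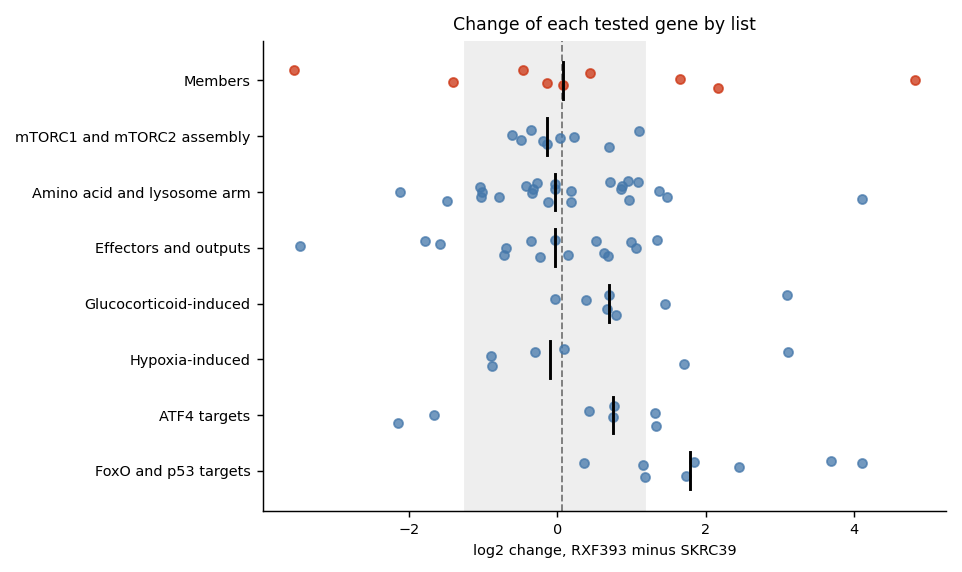
Log2 change of RXF393 against SKRC39 (x axis) of each tested gene of the lists named on the y axis, with a black bar at each median, grey shading from the 10th to the 90th percentile of all genes (-1.26 to 1.18) and a dashed line at their median of 0.07. The medians of the 3 mTOR pathway lists lie between -0.14 and -0.03, and single points such as Ddit4, Sesn1 and Eef2k lie far outside the shading.

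Ddit4 is known to be induced by glucocorticoids, hypoxia, the transcription factor ATF4, FoxO factors and p53. Set beside it were 37 genes that share these inducers or encode the factors behind them, the latter being Nr3c1, Hif1a, Atf4, Foxo1 and Foxo3. Of the 37 genes, 28 were tested and none passed in limma. At an unadjusted p under 0.05 in limma, 12 were higher and 2 lower, beside 8.1% and 6.69% of all genes. The list was chosen with earlier results of these data known, so its counts and medians are a description only. All 8 tested genes of the FoxO and p53 list, Foxo1 and Foxo3 included, had a positive change, and their median was 1.79. A positive change was found for 5458 of the 10196 genes. The list held the cell-cycle inhibitor gene Cdkn1a at 3.70 ± 0.51 (adjusted p = 0.0559, limma) and Foxo1 at 1.84 ± 0.54 (adjusted p = 0.26, limma). Sesn1 belongs to this list as well as to the amino acid arm. The 7 tested glucocorticoid-induced genes had a median of 0.69, led by Fkbp5, a chaperone of the glucocorticoid receptor, at 3.10 ± 0.47 (adjusted p = 0.0682, limma). Tsc22d3 stood at 0.69 ± 0.25 and Klf15 at 1.46 ± 0.54. The 6 tested hypoxia-induced genes had a median of -0.11. Egln3, an oxygen-sensing hydroxylase, stood at 3.11 ± 0.44 (adjusted p = 0.0568, limma), Slc2a1, a glucose transporter, at 1.71 ± 0.79 and Ankrd37 at -0.89 ± 0.67. The 7 tested genes of the ATF4 list, Atf4 included, were mixed, with a median of 0.75. Ddit3, a stress-induced transcription factor, stood at -2.15 ± 0.56, Mthfd2, a mitochondrial folate enzyme, at -1.67 ± 0.50 and Chac1, a glutathione-degrading enzyme, at 0.77 ± 0.27, and none of these passed (adjusted p = 0.21, 0.26 and 0.32, limma).

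The genes whose level followed that of Ddit4 most closely over the 6 arrays were picked by the root mean square distance of their log2 profiles, each centred on its own mean. They were Slc10a6 at a distance of 0.24, Sphk1, a sphingosine kinase, at 0.42, Spsb1 at 0.44, Itpkc, an inositol trisphosphate kinase, at 0.45 and Serpina3n, a secreted protease inhibitor, at 0.54. For Eif4ebp1 they were Nol3 at 0.09, Crp at 0.14, Rit1 at 0.16, Plin5 at 0.17 and Spsb2 at 0.19, with Crp detected on neither SKRC39 array. The 6 arrays share normalization, and closeness over so few arrays is a description only.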

How the data were processed

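Quadriceps RNA was measured on 6 Illumina MouseWG-6 v2.0 arrays. The values used are the deposited intensity of each of 45281 probes before normalization and its detection p-value, per the file headers. A further table of the authors' intensities, which per the labels were quantile-normalized in GenomeStudio (its Gene Expression module 1.9.0), served as an alternative. The platform annotation gives 34885 probes a single symbol and lists none for Rps6kb1.

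Intensities were background-corrected by normexp from the detection p-values, offset by 16, quantile-normalized and log2-transformed with neqc (limma 3.58.1, R 4.3.3). The offset makes changes of dim probes too small. Probes detected at p below 0.05 on at least 2 arrays were tested (17738) with lmFit and eBayes with an intensity trend, adjusted by Benjamini-Hochberg over all of them, and called below 0.05. The brightest probe stands for its gene. The fit was run on simulated data with independent noise and added changes, which checks the code and does not measure false calls. The number of arrays limits precision.

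Named were all members and probes, the 3 genes with the smallest p of each other list, any past the threshold, and the 5 genes nearest in profile to Ddit4 and Eif4ebp1, clone names left out; Mlst8, Rictor and Eif4ebp2 were added after their values were seen. Members, lists and motifs were chosen with earlier results of these data known. Alternatives changed background correction, scaling, filter, probes, variance model, arrays and pairing.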

Additional observations from a re-analysis of the deposited data

Results flagged for a closer look

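Arrays outside the comparison were searched for member probes more than 1 log2 unit above both SKRC39 arrays. Lower values were not searched for. The share of all tested probes that meet this condition was not counted, so the counts here have no background to be read against. None was found on the array titled RXF_1, and 9 probes of 6 genes were found on the array titled SKR_3, whose title and characteristics disagree. Ddit4 stood there at 13.92, 4.85 above the higher SKRC39 array, Eif4ebp1 at 14.76 (1.78 above) and Rheb at 14.20 (1.70 above). All 4 Tsc1 probes met the same condition, at 9.05, 8.74, 8.25 and 7.77, that is 1.68, 2.16, 1.34 and 1.52 above. The second Mtor probe stood at 9.51 (1.20 above) and the dim Rptor probe at 6.81 (1.26 above). Ddit4l, at 11.86 on this array, lay below both SKRC39 arrays and so fell outside the search. These are values of 1 array with no assigned group and were not tested.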

How the results depend on the processing

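Ddit4 kept its direction under all 18 alternatives. Of the 14 that did not leave out an array in turn, it lost its call only under median scaling, without the intensity trend and by title. The count of members past the threshold was 1 as reported, where 0.353% of all genes were called. It was 2 with a neqc offset of 50 (0.392% of all genes) and 3 without the detection filter (0.178%). Among probes detected on all 6 arrays it was 3 (2.02%), and by characteristics 4 (18.3%). It was 0 under median scaling, without the intensity trend and by title, where no named gene was called. With the description number as a replicate block it was 3 (3.49% of all genes), and 5 by characteristics with that block (30.5%). The count of other mTOR pathway genes was 0 as reported and 1 among probes detected on all 6 arrays. It was 11 by characteristics, 2 with the replicate block and 20 by characteristics with it. For the genes that share inducers with Ddit4 or encode the factors behind them, the count was 0 as reported and 1 with a neqc offset of 50. It was 4 among probes detected on all 6 arrays, 15 by characteristics, 4 with the replicate block and 18 by characteristics with it. Each count is to be read beside the share of all genes called under that setting, given above. The description number joins SKRC39 replicate 1 with RXF393 replicate 2 and SKRC39 replicate 2 with RXF393 replicate 3. Arrays so joined deviated together (correlation 0.51 over 17738 probes), but with 2 pairs the number is not known to pair mice.

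Of 162 member values under the alternatives, 11 had the opposite sign, and none of these passed. Mtor stood at 0.025 with the mean of its probes, 0.23 by title, 0.11 without SKRC39 replicate 1, -1.31 without RXF393 replicate 2 and 0.38 without RXF393 replicate 3. Rptor stood at -0.011 by characteristics, with or without the block, and between -0.094 (without SKRC39 replicate 2) and 0.24 (without SKRC39 replicate 1) leaving out 1 array. Tsc1 stood at -0.28 by title. Tsc2 stood at 0.14 under median scaling, 0.10 with the mean of its probes and between -0.35 (without SKRC39 replicate 1) and 0.071 (without SKRC39 replicate 2) leaving out 1 array. The cause was not tested. The median change of all genes lay between -0.03 and 0.19 over the settings. Of all genes, 0% to 30.5% were called. Changes of probes near background are limited by signal.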
